A study of Homo sapiens with 8 samples.

Results

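The microRNA (miRNA) processing and silencing machinery was examined here through 9 genes, namely DROSHA, DGCR8, XPO5, DICER1, TARBP2, EIF2C2 (the Argonaute gene AGO2), TNRC6A, TNRC6B and TNRC6C. The members were chosen by the gene name that the array design gives to a probe, and 12 probes carried one of these names. They are 9 of the 36337 gene names and 12 of the 50599 probes on the array. XPO5 had 3 probes, TNRC6C had 2 and each of the other members had 1.

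A miRNA is made in steps. DROSHA and DGCR8 cut a hairpin out of the primary transcript in the nucleus, XPO5 carries the hairpin to the cytoplasm, and DICER1 with TARBP2 trims it to the mature miRNA. An Argonaute protein such as that of EIF2C2 then holds the miRNA and finds complementary mRNAs, and the TNRC6 proteins link Argonaute to the enzymes that shorten the poly(A) tail and remove the cap. In medullary thyroid carcinoma, a tumour of the calcitonin-producing C cells, miR-375 is among the miRNAs known to be abundant.

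The study set out to change miR-375 in 2 established thyroid cell lines and measured mRNAs on 8 one-colour Agilent arrays, 2 for each of 4 groups. Nthy-ori 3-1, an immortalized line of non-tumoral follicular cells, received pre-miR-375 or was labelled CTL as the control. The study describes pre-miR-375 as a mimic of the miRNA. TT, a medullary carcinoma line, received AntagomiR-375, an antisense inhibitor, or was labelled CTL. The labels give 48 h of transfection with the same lipid reagent in all groups, at 5 nM for precursors and 20 nM for antagomiRs, while the methods of the study state higher concentrations. The labels do not name the control reagents. In its transfection methods the study lists pre-miR-CTL for Nthy-ori 3-1 and antagomiR-CTL for TT cells. Its array methods name pre-miR-CTL as the only control reagent, so the one used in TT cells is uncertain. Each line stands for 1 cell model, and line was tied to the day of scanning, to the slides and to the concentration transfected. Differences between the lines therefore cannot be told apart from those between scan days, slides or concentrations.

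The sequence that pre-miR-375 was meant to supply and antagomiR-375 to block is that of mature miR-375. It is shown from 5′ to 3′ with its seed, bases 2 to 8, in capitals. It is taken from RefSeq (GRCh38.p14, chr2:219001648-219001669, minus strand).
hsa-miR-375-3p: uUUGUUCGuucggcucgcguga
The letters complementary to this seed, CGAACAA, were searched in the sense strand of the probe sequences. They were in 0 of the 12 probes of the machinery and in 31 of all 50599 probes (0.0613%). The probes cover a short stretch of each mRNA, so this count does not describe the whole transcripts.

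Signals well above background were found for 32071 to 37340 of 58717 non-control spots per array, and no spot was saturated. SEC23A, a gene of the COPII coat, was named by the study as a target of miR-375. The study chose SEC23A partly because it fell with pre-miR-375 and rose with antagomiR-375 on these arrays. Its values therefore cannot serve as an independent check of the transfections. In Nthy-ori 3-1 cells its log2 intensity was 11.04 and 11.35 without and 9.53 and 10.08 with pre-miR-375. In TT cells it was 9.55 and 9.68 without and 10.24 and 10.29 with antagomiR-375. In the limma fits used here, the adjusted p of SEC23A were 0.318 with pre-miR-375 and 0.512 with antagomiR-375. The study itself required an adjusted p of at most 0.05 with pre-miR-375 and set no p for antagomiR-375, and it retained SEC23A. By immunoblot it also reported less SEC23A protein with the mimic and more with antagomiR-375. All 8 markers of C cells and medullary carcinoma on the array were well above background on every TT array, and 0 of 8 were on either Nthy-ori 3-1 control array, but 4 and 5 of 8 were on the 2 pre-miR-375 arrays. The summed intensity of these 8 markers, as log2, was 6.35 to 6.51 in control Nthy-ori 3-1 cells, 7.96 to 8.68 with pre-miR-375 and 18.95 to 19.13 on the TT arrays. CEACAM5 and DDC were well above background on no Nthy-ori 3-1 array. The part of these markers in the differences with pre-miR-375 was not tested. Of 8 follicular markers, 4 were well above background on all Nthy-ori 3-1 arrays, among them PAX8 and FOXE1. TSHR and NKX2-1 were on none of these arrays. On all TT arrays 5 of the 8 follicular markers were well above background, among them TG, PAX8 and NKX2-1. Of 4 white blood cell markers, 3 were so on all arrays of either line. This call alone therefore does not establish a cell type. According to the labels, RNA integrity was scored 8 in the control TT cells (both arrays) and 9 everywhere else.

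All 12 probes of the machinery were well above background on all 8 arrays, as were 43.9% of all probes. Values below are log2 intensities of a probe after quantile normalization over the 8 arrays, given in the order of replicates 1 and 2, and differences are on the same log2 scale. A value can be compared between arrays for the same probe, and not between probes. An array reads the RNA of a whole culture, so a lower level in every cell and fewer cells with the mRNA cannot be told apart. Adjusted p are those of limma after Benjamini-Hochberg adjustment over all probes.

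**Figure D1:**
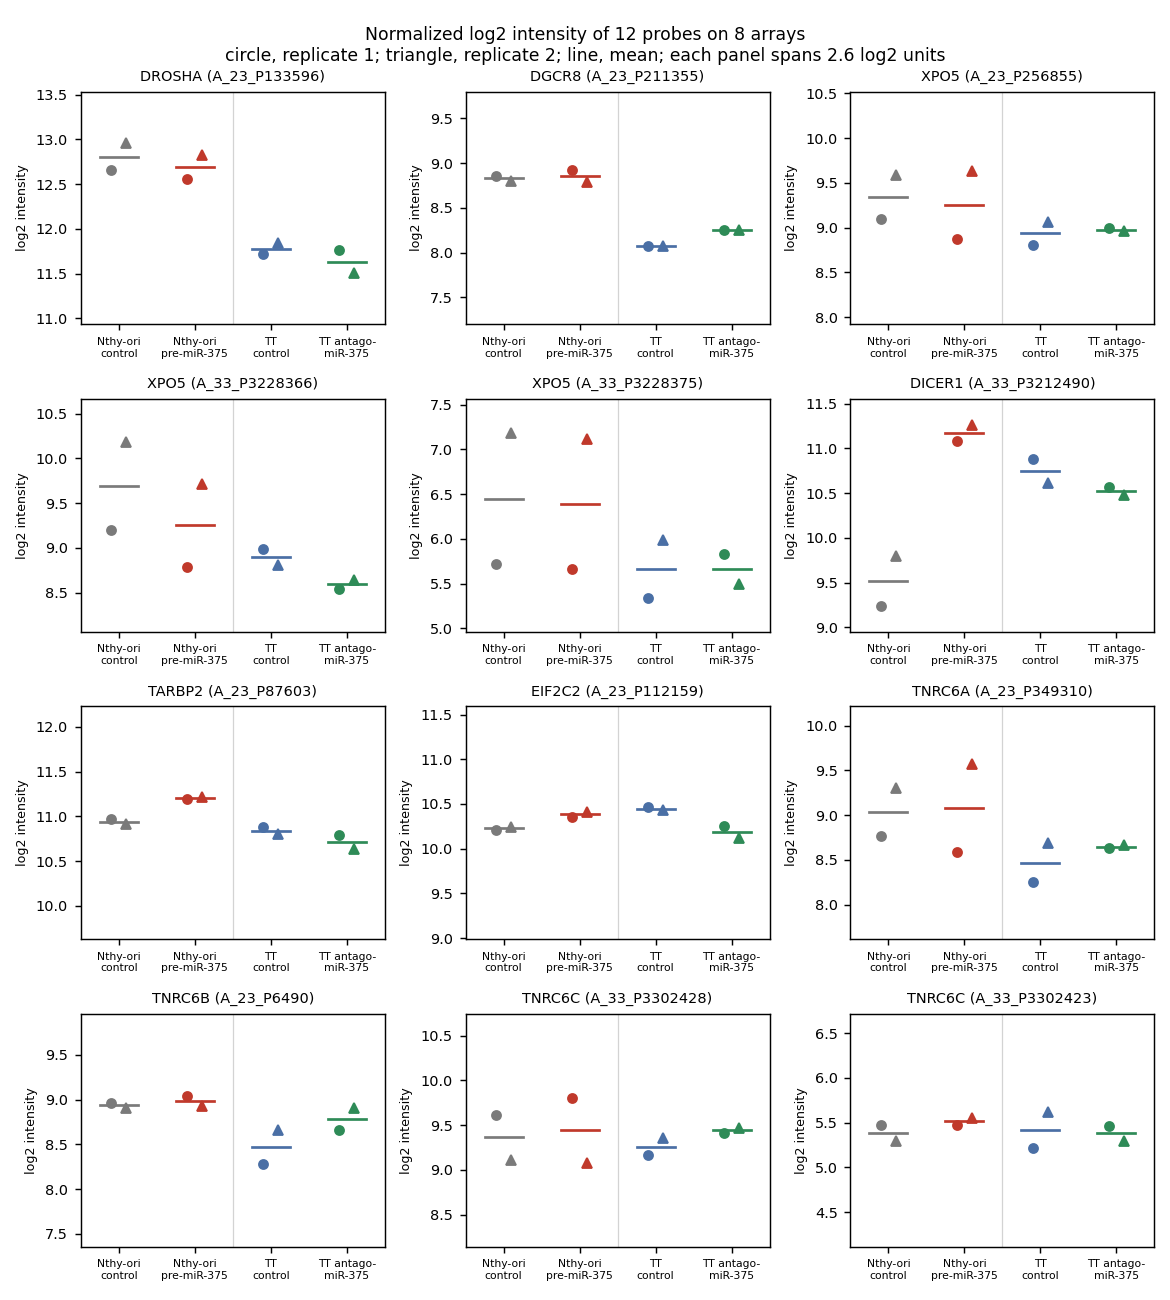
Normalized log2 intensity (y axis) of the 12 probes in the 4 groups (x axis), with a circle for replicate 1, a triangle for replicate 2 and a line for the group mean. DICER1 has its lowest values, 9.24 and 9.79, in control Nthy-ori 3-1 cells, and DROSHA and DGCR8 lie lower on all 4 TT arrays than on the 4 Nthy-ori 3-1 arrays.

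DROSHA, the nuclear RNase that makes the first cut, had log2 intensities of 12.65 and 12.96 in control Nthy-ori 3-1 cells and 12.56 and 12.83 with pre-miR-375. In TT cells it had 11.72 and 11.84 in the control and 11.76 and 11.50 with antagomiR-375. Within each line the treated and control arrays overlapped, and all 4 TT arrays lay below all 4 Nthy-ori 3-1 arrays. The difference with pre-miR-375 was -0.11 (95% interval -0.46 to 0.24, adjusted p = 0.612), and that with antagomiR-375 was -0.15 (-0.78 to 0.48, adjusted p = 0.741). Between the control groups DROSHA was lower in TT by 2.04-fold, a log2 difference of -1.03 (SE 0.191, adjusted p = 0.0117). The probe lies at chr5:31401473-31401532 in hg19, on the minus strand.

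DGCR8, the RNA-binding partner of DROSHA, had log2 intensities of 8.86 and 8.80 in control Nthy-ori 3-1 cells and 8.92 and 8.79 with pre-miR-375. The TT values were 8.07 and 8.08 in the control and 8.25 and 8.26 with antagomiR-375. The Nthy-ori 3-1 groups overlapped, while in TT cells both treated arrays lay above both control arrays and below every Nthy-ori 3-1 array. The log2 difference was 0.03 with pre-miR-375 (95% interval -0.33 to 0.39, adjusted p = 0.937) and 0.18 with antagomiR-375 (-0.15 to 0.51, adjusted p = 0.604). Between the control groups DGCR8 was lower in TT by 1.69-fold (log2 difference -0.75, SE 0.114, adjusted p = 0.00551). Its probe is at chr22:20098916-20098975 in hg19, on the plus strand. Thus both genes of the nuclear cleavage complex were lower in TT control cells, and neither passed the test with pre-miR-375 or antagomiR-375.

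XPO5, the export receptor of hairpin precursors, was read by 3 probes that did not give the same values. The brightest, A_23_P256855, had log2 intensities of 9.10 and 9.59 in control Nthy-ori 3-1 cells, 8.87 and 9.63 with pre-miR-375, 8.81 and 9.07 in control TT cells and 8.99 and 8.96 with antagomiR-375. In Nthy-ori 3-1 cells replicate 2 was above replicate 1 in both groups, by more than the difference between the groups. The log2 difference of this probe was -0.10 with pre-miR-375 (95% interval -0.63 to 0.43), 0.04 with antagomiR-375 (-0.48 to 0.56) and -0.41 between the lines (-1.11 to 0.29), and the adjusted p were 0.760, 0.934 and 0.373.

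The probe A_33_P3228366 of XPO5 lies nearer to the start of the transcript NM_020750, at base 3133 against base 4789 of the former. It had 9.20 and 10.19 in control Nthy-ori 3-1 cells and 8.79 and 9.71 with pre-miR-375, which was lower in both pairs of arrays on the same slide, by -0.41 and -0.47. The log2 difference of -0.44 had an unadjusted p of 0.0335 and an adjusted p of 0.327 with limma. In TT cells it had 8.99 and 8.81 in the control and 8.54 and 8.64 with antagomiR-375, so that the groups did not overlap (log2 difference -0.31, adjusted p = 0.579). The dimmest XPO5 probe, A_33_P3228375, spanned 5.35 to 7.18 over the 8 arrays, with differences of -0.05, -0.00 and -0.78 in the 3 comparisons and adjusted p of 0.806, 0.999 and 0.443. Relative to control Nthy-ori 3-1 cells, all 3 probes read lower in TT control cells, and none of them passed the test.

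DICER1, the cytoplasmic RNase that releases the mature miRNA, differed the most among the members with pre-miR-375. Its log2 intensities were 9.24 and 9.79 in control Nthy-ori 3-1 cells and 11.08 and 11.26 on the pre-miR-375 arrays. Both treated arrays lay above both control arrays, and the gap between the groups was wider than the distance between replicates. The log2 difference was 1.66 (SE 0.155, 95% interval 0.99 to 2.32), a 3.15-fold higher intensity, with 1.84 in the first pair of arrays and 1.47 in the second. Among the 20758 probes with an average log2 intensity of at least 6, 38 (0.183%) were higher by as much or more.

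The limma test of the Nthy-ori 3-1 arrays alone left DICER1 with an unadjusted p of 0.00869 and an adjusted p of 0.318. That value was the smallest adjusted p in the comparison, but a tie with other probes. The pathway genes TSN and DCP2, described below, shared it with larger unadjusted p of 0.0155 and 0.0220. Of 9 alternative settings with a test, 5 brought the adjusted p of DICER1 to 0.05 or below. The adjusted p was 0.0289 with normexp background correction, 0.0410 with uncorrected median signals, 0.0411 with the log2 values of the authors, 0.0444 when only probes well above background were tested and 0.0105 when both lines were fitted together. It was 0.282 to 0.583 in the 4 others. The log2 difference of DICER1 stayed within 1.47 and 1.84 in every setting run, including those with 1 pair of arrays.

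In TT cells DICER1 had log2 intensities of 10.88 and 10.61 in the control and 10.56 and 10.47 with antagomiR-375. Both treated arrays lay just below both control arrays. The log2 difference was -0.22 (SE 0.102, 95% interval -0.64 to 0.19, adjusted p = 0.604), with -0.31 and -0.13 in the pairs of arrays. The RNA integrity number differed between these TT groups as given above, and its part in this difference was not tested.

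Between the control groups DICER1 was higher in TT than in Nthy-ori 3-1, by 2.34-fold (log2 difference 1.23, SE 0.220, adjusted p = 0.0105). This call did not hold in 2 of 11 alternatives. The adjusted p was 0.0595 when the 4 control arrays were fitted alone and 0.0533 without TT control replicate 1, where the log2 difference was 1.12. From low to high, the groups were ordered as control Nthy-ori 3-1, antagomiR-375 TT, control TT and pre-miR-375 Nthy-ori 3-1. Within this order the TT groups are neighbours whose difference did not pass the test. DICER1 on the pre-miR-375 arrays was above all 4 TT arrays. The DICER1 probe lies at chr14:95552615-95552674 in hg19, on the minus strand.

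**Figure D2:**
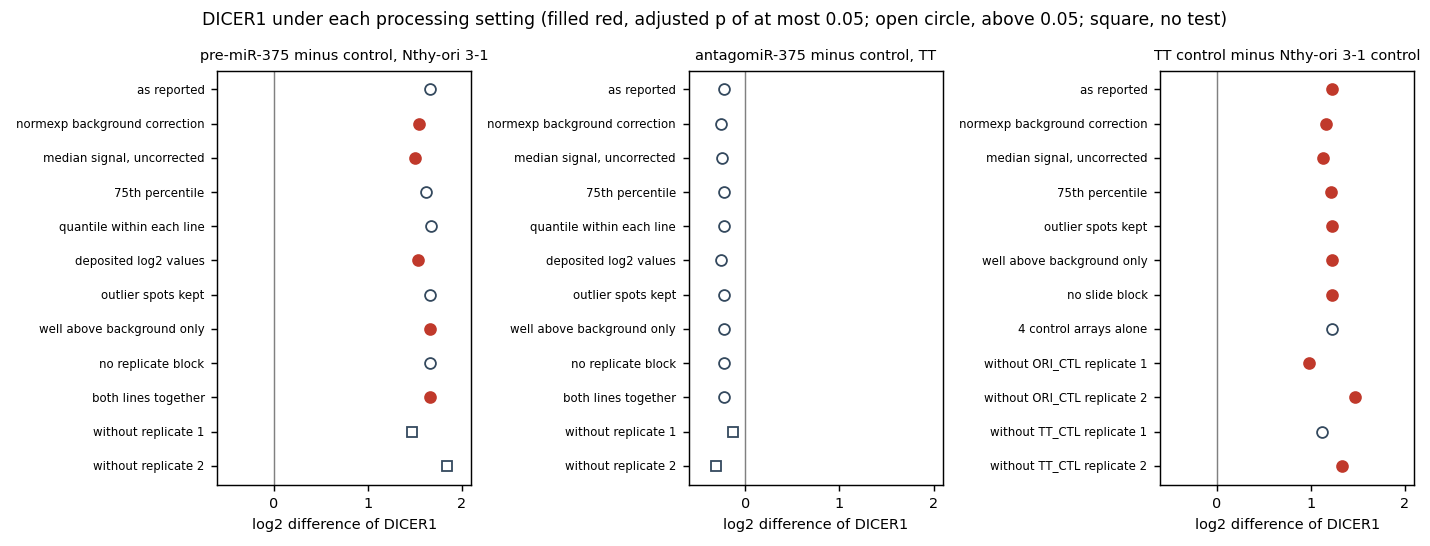
Log2 difference of DICER1 (x axis) under each processing setting (y axis) for the 3 comparisons, filled in red where the adjusted p was at most 0.05, open where it was above, and square where 1 pair of arrays allowed no test. The differences with pre-miR-375 lie between 1.47 and 1.84 and those with antagomiR-375 between -0.31 and -0.13.

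TARBP2, the double-stranded RNA-binding partner of DICER1, had log2 intensities of 10.97 and 10.91 in control Nthy-ori 3-1 cells and 11.20 and 11.22 with pre-miR-375. Control TT cells had 10.88 and 10.81, and TT cells with antagomiR-375 had 10.80 and 10.64. Treated arrays lay above control arrays in Nthy-ori 3-1 and below them in TT cells, without overlap in either line. The log2 difference was 0.27 with pre-miR-375 (95% interval -0.10 to 0.63, adjusted p = 0.408) and -0.13 with antagomiR-375 (-0.48 to 0.23, adjusted p = 0.682). The lines differed by -0.10 (-0.40 to 0.20, adjusted p = 0.635), and the probe is at chr12:53899897-53899956 in hg19, on the plus strand.

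EIF2C2 encodes AGO2, the Argonaute that can cut its targets. It was the only member read by 10 spots per array, whose log2 signals on an array had an SD of 0.0646 to 0.119. Its log2 intensities were 10.21 and 10.24 in control Nthy-ori 3-1 cells, 10.35 and 10.41 with pre-miR-375, 10.46 and 10.43 in control TT cells and 10.25 and 10.12 with antagomiR-375. As with DICER1 and TARBP2, the arrays of the treated cells were above the controls in Nthy-ori 3-1 and below them in TT. The log2 differences were 0.16 (95% interval -0.19 to 0.50, adjusted p = 0.554) and -0.26 (-0.63 to 0.10, adjusted p = 0.536), and the control groups differed by 0.22 (-0.07 to 0.51, adjusted p = 0.250).

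The probes of DICER1, TARBP2 and EIF2C2 were thus 3 of 12 that were above the controls without overlap in Nthy-ori 3-1 and below them without overlap in TT. Among 50582 probes with a value on every array, 2007 (3.97%) had this pattern. The opposite pattern, below the controls with pre-miR-375 and above them with antagomiR-375, was seen for 0 of the 12 and for 3.66% of all probes. The 2 treatments share no arrays, and none of these differences passed the test in the fits of each line alone.

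TNRC6A, TNRC6B and TNRC6C encode the GW182 scaffolds that Argonaute recruits. TNRC6A had log2 intensities of 8.77 and 9.30 in control Nthy-ori 3-1 cells, 8.59 and 9.58 with pre-miR-375, 8.25 and 8.69 in control TT cells and 8.63 and 8.66 with antagomiR-375. The treated and control arrays overlapped in both lines, and both TT control arrays were below both Nthy-ori 3-1 control arrays. The log2 differences were 0.05 with pre-miR-375, 0.17 with antagomiR-375 and -0.56 between the lines (95% interval -1.45 to 0.33), with adjusted p of 0.966, 0.712 and 0.334.

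TNRC6B had 8.96 and 8.91 in control Nthy-ori 3-1 cells and 9.04 and 8.93 with pre-miR-375, a log2 difference of 0.05 (adjusted p = 0.823). In TT cells it had 8.28 and 8.66 in the control and 8.66 and 8.90 with antagomiR-375. Its log2 difference with antagomiR-375, 0.31 (SE 0.0958, 95% interval -0.08 to 0.70), was the highest among the 12 probes, with an unadjusted p of 0.0767 and an adjusted p of 0.524. It was higher in both pairs of arrays, by 0.38 and 0.24, although the lower treated array did not exceed the higher control array. Between the lines the log2 difference was -0.47 with an adjusted p of 0.0934, which became 0.0446 with normexp background correction and 0.0409 with uncorrected median signals.

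TNRC6C had log2 intensities of 9.62 and 9.11 in control Nthy-ori 3-1 cells, 9.81 and 9.08 with pre-miR-375, 9.17 and 9.35 in control TT cells and 9.41 and 9.47 with antagomiR-375 on its brighter probe, A_33_P3302428. In Nthy-ori 3-1 cells replicate 1 was the higher in both groups, the reverse of XPO5 and TNRC6A. In TT cells both treated arrays were above both control arrays. The log2 differences were 0.08, 0.18 and -0.10 in the 3 comparisons, and those of the dimmer probe were 0.13, -0.03 and 0.03. None of these passed the test (adjusted p of 0.630 or more).

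Taking the 12 probes side by side, 0 had an adjusted p of 0.05 or below with pre-miR-375 in limma, and neither did any of the 50594 probes tested (0%). At an unadjusted p under 0.05, limma gave 1 probe higher (DICER1) and 1 lower (A_33_P3228366 of XPO5), against 14.3% of all probes. The groups did not overlap for 3 of the 12 probes, all higher with pre-miR-375, against 30.1% of all probes in either direction and 15.2% higher. Among probes with an average log2 intensity of at least 6, 19.9% were higher without overlap. The median log2 difference of the 9 members, 1 probe a gene, was 0.05, and that of all probes was 0.00. The other settings called 0 or 1 of the 12 probes, and the called probe was that of DICER1.

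With antagomiR-375, 0 of the 12 probes passed the adjusted p in limma (0 of all 50587 probes, 0%), and 0 had an unadjusted p under 0.05, against 9.73% of all probes. The alternatives also called 0 of the 12, with 0 to 3 at an unadjusted p under 0.05. The groups did not overlap for 6 of 12 probes, 2 higher and 4 lower, against 42.3% of all probes. Among probes with an average log2 intensity of at least 6, 23.2% were higher and 26% lower without overlap. The median log2 difference of the 9 members was 0.04, and the 12 probes ranged from -0.31 to 0.31.

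Between the control groups 3 of the 12 probes passed the test, DICER1 higher and DROSHA and DGCR8 lower in TT, while 30.1% of all probes did. Among probes with an average log2 intensity of at least 6, which 11 of the 12 had, 47.4% passed. DROSHA and DGCR8 passed in each of the 11 alternatives. The RNA integrity number also differed between the control groups, 9 in Nthy-ori 3-1 and 8 in TT. So did the concentration in the labels, 5 nM in Nthy-ori 3-1 and 20 nM in TT. The part of either in these differences cannot be told apart from that of the line. The groups did not overlap for 9 of 12 probes, 2 higher and 7 lower in TT, against 65.4% of all probes. Among probes with an average of at least 6, 35.5% were higher and 41.4% lower without overlap. The median log2 difference of the 9 members was -0.41, with 7 of 9 lower in TT. Of all probes 55.4% were lower in TT, with a median of -0.05. Of those with an average of at least 6, 53.4% were lower, with a median of -0.08.

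**Figure D3:**
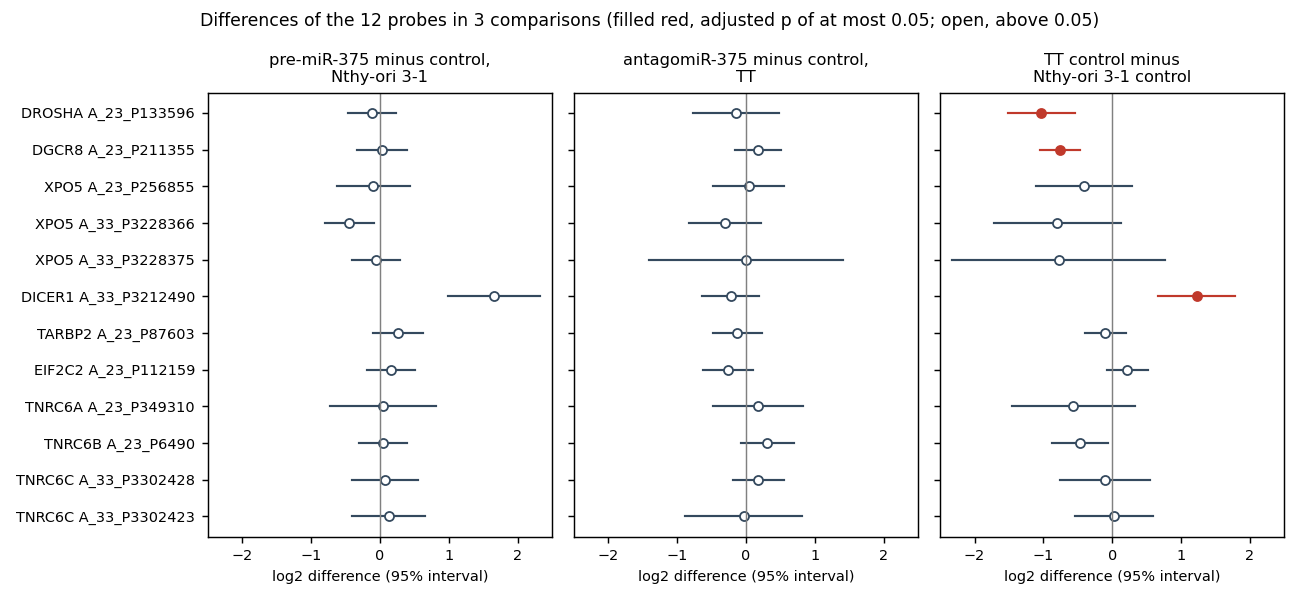
Log2 difference (x axis) of each of the 12 probes (y axis) with its 95% interval in the 3 comparisons, filled in red where the adjusted p was at most 0.05. The intervals are not adjusted for the number of probes. That of DICER1 with pre-miR-375, 0.99 to 2.32, excludes 0 at an adjusted p of 0.318. Those of A_33_P3228366 of XPO5 with pre-miR-375 (-0.80 to -0.09) and TNRC6B between the lines (-0.88 to -0.06) also exclude 0 without a call. The red points are DROSHA, DGCR8 and DICER1 in the comparison of the lines.

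To set the members beside their pathway, 67 further genes of miRNA biogenesis, silencing and turnover were read through the brightest probe of each, of which 64 were well above background on all arrays. With pre-miR-375, 0 of the 67 passed the adjusted p in limma, 5 were higher and 14 lower at an unadjusted p under 0.05, and their median log2 difference was -0.11. Of all probes, 7.08% were higher and 7.26% lower at that p, or 10.6% and 12.1% of those with an average log2 intensity of at least 6. All 9 genes of export and loading were lower in both pairs of arrays, with a median of -0.46, and 7 of 10 Microprocessor cofactors were lower in both pairs, with a median of -0.33. Of the deadenylation genes 6 were higher and 6 lower in both pairs, of the decapping and decay genes 6 and 5. Of the tailing and turnover genes 6 were higher and 4 lower, of the silencing cofactors 3 and 2, and of the Argonautes 1 and 1. Over the 67 genes, 24 were higher and 34 lower in both pairs. In comparison, 31.7% of all probes were higher and 27.9% lower in both pairs. That share was not taken for brighter probes alone, of which 45.9% had a lower mean.

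Among those of the 67 genes that moved alike in both pairs of arrays and averaged 6 or more on the log2 scale, PAPD4, a cytoplasmic poly(A) polymerase that adds adenosines to some miRNAs, had the lowest difference with pre-miR-375. Its log2 intensities were 8.11 and 8.62 in the control and 6.47 and 7.15 with pre-miR-375, a log2 difference of -1.56 (adjusted p = 0.318). In TT cells it had 8.49 and 8.40 in the control and 8.81 and 8.88 with antagomiR-375, a difference of 0.40 (adjusted p = 0.512). Thus the groups did not overlap in either line, with pre-miR-375 below and antagomiR-375 above the control. This pattern was seen for 3.66% of all probes. C2orf29, described below, and the Microprocessor cofactor SRRT on its brightest probe also had it. With pre-miR-375 and antagomiR-375 the log2 differences were -0.46 and 0.40 for C2orf29 and -0.21 and 0.38 for SRRT. How many of the 67 genes had this pattern was not counted.

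PRKRA, which encodes the DICER1 partner PACT, had 10.48 and 10.64 in control Nthy-ori 3-1 cells and 9.66 and 9.86 with pre-miR-375, a log2 difference of -0.80 (adjusted p = 0.318). TSN, a subunit of the C3PO nuclease, had a log2 difference of -0.70 on its brighter probe and of -0.32 on the other. Within the same limits the highest differences with pre-miR-375 were those of the decapping enzyme DCP2 (0.79), of KIAA0913 (0.46), the older name of the miRNA-decay factor ZSWIM8, and of the decapping cofactor EDC3 (0.45). None of these passed the adjusted p. The dimmer genes PAPD5 and LIN28B, singled out after their values were seen, were higher by more than 1 but had averages below 6, and were well above background on 0 and 1 of the 2 control arrays.

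With antagomiR-375, 0 of the 67 genes passed in limma, 2 were higher and 3 lower at an unadjusted p under 0.05, and the median log2 difference was -0.02. Of all probes, 4.91% were higher and 4.82% lower at that p. Within the limits on average and direction the lowest were PAN2 (-0.40) and CNOT6 (-0.38), both catalytic subunits of deadenylases, and the RNA-binding protein gene FMR1 (-0.37). The second probe of FMR1 had -0.08. The highest besides PAPD4 were C2orf29 (0.40), the older name of the CCR4-NOT subunit CNOT11, and the Argonaute EIF2C4 (0.40). None of these passed the adjusted p, and the dim PAPD5, lower by more than 1, was detected on 1 of the 4 TT arrays.

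Between the control groups 35 of the 67 genes passed the test, 8 higher and 27 lower in TT, with a median log2 difference of -0.35. In comparison 14.8% of all probes passed higher and 15.3% lower, or 22.5% and 24.9% of those with an average of at least 6. Among the silencing cofactors 6 of 8 passed, all lower. LIMD1, which links Argonaute to the cap-binding complex, was lower by 8.88-fold on its brightest probe (log2 difference -3.15, adjusted p = 0.00118), whereas its lowest and highest differences over 2 probes were -3.15 and -0.26. The RNA helicase gene MOV10 had a log2 difference of -2.59 (adjusted p = 0.00546) and the HSP90 cochaperone gene PTGES3 one of -1.90 (adjusted p = 0.000582).

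LIN28B, whose protein binds let-7 precursors and blocks their processing, was the farthest above in TT. Its log2 intensities were 11.08 and 11.14 in control TT cells and 1.78 and 5.83 in control Nthy-ori 3-1 cells, where 1 of 2 arrays was well above background. The adjusted p was 0.0116, and the size of the log2 difference of 7.30 rests on a group with signals near background. PRKRA was also higher in TT, by 1.23 on the log2 scale (adjusted p = 0.00181), as was the deadenylase gene CNOT8, by 1.14 (adjusted p = 0.0337).

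Of the other Argonautes, EIF2C3 was lower in TT control cells by 1.98-fold on its brighter probe (log2 difference -0.98, adjusted p = 0.0160), while its second probe had 0.08. EIF2C4 had 6.41 and 6.41 in control Nthy-ori 3-1 and 7.46 and 7.04 in control TT cells, a log2 difference of 0.84 with an adjusted p of 0.0508. EIF2C1 had a log2 difference of 0.17 (adjusted p = 0.729) on its brighter probe, while its second probe had -0.30. With pre-miR-375 the 3 genes had differences of 0.15, -0.06 and -0.25 for EIF2C3, EIF2C4 and EIF2C1, none past the test. With antagomiR-375, EIF2C1 had 0.21 and EIF2C3 -0.13, while the second probe of EIF2C3 had 0.0034. In neither treatment did an Argonaute gene pass the adjusted p.

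**Figure D4:**
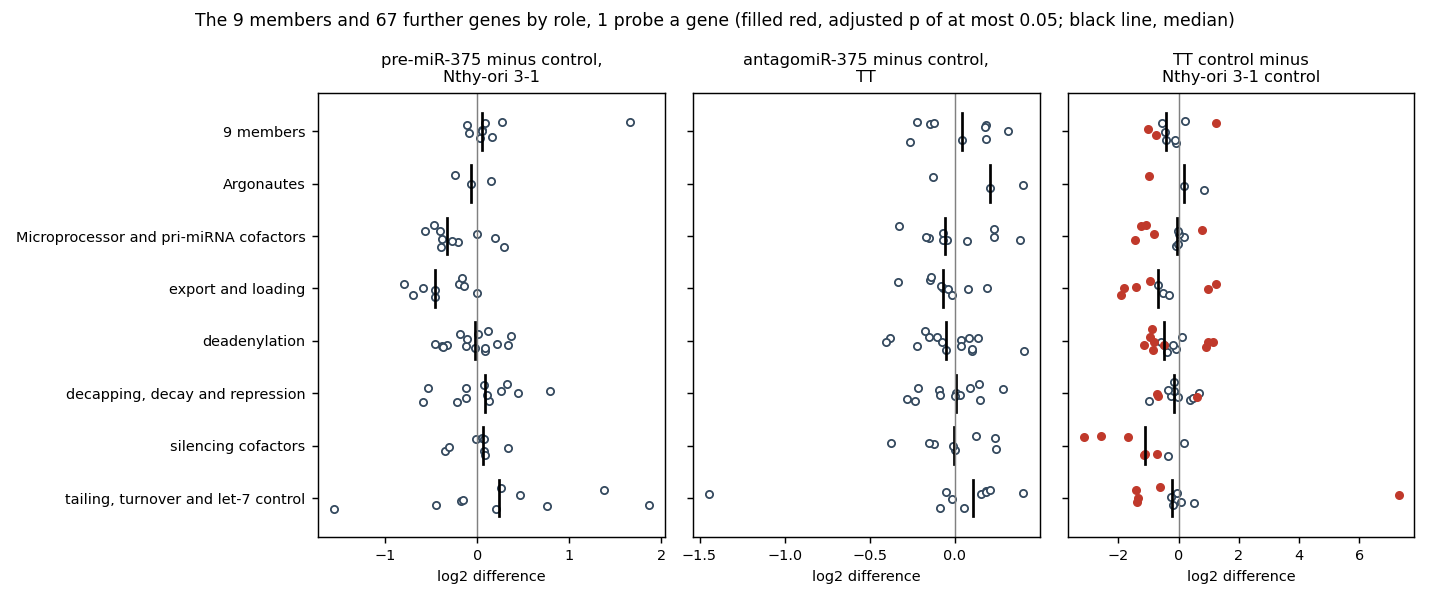
Log2 difference (x axis, on a scale of its own in each comparison) of the 9 members and of 67 further genes grouped by role (y axis), with a black line at the median and filled red points for an adjusted p of at most 0.05. With pre-miR-375 DICER1 stands at 1.66 and PAPD4 at -1.56, all 9 genes of export and loading lie below 0, and calls appear in the comparison of the lines alone, where LIN28B is at 7.30.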

How the data were processed

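The authors deposited 1 scanner file for each of the 8 arrays, written by Feature Extraction 10.10.1.1, with background-subtracted processed intensity, mean and median intensity and local background per spot, not normalized between arrays. They also deposited a table of log2 values, read here as quantile-normalized log2 median signals because each array's column followed its median signal most closely (Pearson r 0.998 or more across probes); its centring was taken as found, with column medians of 6.23 to 6.49. Probe positions and gene names are those of the array design. The methods of the study name quantile normalization and limma.

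Here log2 processed intensity was used, control spots and spots marked as outliers (341 to 428 per array) were left out, the mean was taken over repeated spots, and quantile normalization was run over all 8 arrays (limma 3.58.1, R 4.3.3). Each line was fitted alone (lmFit and eBayes), blocked on replicate number, since arrays with the same number lay on the same slide. The deviations of same-numbered arrays correlated across probes (r = 0.785 in Nthy-ori 3-1, 0.33 in TT). This left 1 residual degree of freedom. The control groups were compared in a fit of all 8 arrays with slide as a random block (correlation 0.5005). Tests were two-sided, with Benjamini-Hochberg adjustment over all probes, and 0.05 as the threshold. An exact permutation test of 2 against 2 arrays cannot go below 0.333. Titles and descriptions of the TT arrays number the replicates differently, and the titles were followed. Replicates are numbered samples of a group. In the treatment fits the block takes out the spread between replicates. There p rest on how closely the 2 pairs of arrays agree in their difference, and on a spread estimated from all probes. In the fit of all 8 arrays, p rest on the spread between arrays of a group, with slide as a random block. The number of arrays limits the precision.

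The members, the gene lists and the tests were chosen with earlier results of these data known. The probe with the highest average over the 8 arrays stood for a gene. All members were named, and of the further pathway genes those with the 3 highest and the 3 lowest log2 differences per comparison (average of at least 6, same direction in both pairs or no overlap of the control groups) and the Argonautes. Alternatives were normexp background correction (offset 50), uncorrected median signals, scaling to the 75th percentile, normalization within each line, the deposited log2 values, only probes well above background, outlier spots kept, no block, both lines fitted together, and leaving out arrays. The level of 1 marker gene is not reported here. The steps were tested on simulated data.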

Additional observations from a re-analysis of the deposited data

How the results depend on the processing

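With pre-miR-375 the count of probes with an adjusted p of at most 0.05 was 0 as reported, and 1561 with normexp background correction, 517 with uncorrected median signals, 569 with the deposited log2 values, 999 when only probes well above background were tested and 2478 when both lines were fitted together. Each of these 5 settings called 1 of the 12 probes of the machinery, that of DICER1. With antagomiR-375 the count of 0 became 10 with uncorrected median signals and 3 with both lines together, none of them a member. Without the replicate block, that is without the pairing of arrays on a slide, 0 probes passed in either line, with 4123 and 4899 at an unadjusted p under 0.05, and the block changed no call of a member. Between the lines 15248 probes passed, and 12192 to 15736 in the alternatives, with 2 to 4 of the 12 probes of the machinery (2 to 3 when a control array was left out).

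Of 396 values of single members under an alternative, 17 had the other sign, and none of them had passed the test in that comparison. Of the 17, 10 came from leaving out a pair of arrays, from values reported at -0.15 to 0.17, with the widest for A_33_P3228375 of XPO5 with antagomiR-375 (-0.00 as reported, -0.4953 and 0.4923 with 1 pair). The 7 others were DGCR8 with pre-miR-375 at -0.0061 with normexp, A_33_P3228375 of XPO5 at 0.0113 with pre-miR-375 under the 75th percentile and at 0.0267 with antagomiR-375 under normexp, and A_33_P3302423 of TNRC6C at 0.0070 with antagomiR-375 under normexp. Between the lines A_33_P3302423 ranged from -0.2253 (without TT control replicate 2) to 0.2840 (without TT control replicate 1) and was at -0.0769 without Nthy-ori 3-1 control replicate 2, and A_33_P3302428 of TNRC6C ranged from -0.2269 (without Nthy-ori 3-1 control replicate 2) to 0.0192 (without Nthy-ori 3-1 control replicate 1). With 1 residual degree of freedom in each treatment comparison, an adjusted p above 0.05 does not show that a gene kept its level. The cause of the differences between settings was not tested.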
